A study of Homo sapiens with 4 samples.

Results

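The genes examined were 10 genes of the Notch pathway, chosen by symbol among 22679 named loci: the receptors NOTCH1, NOTCH2, NOTCH3 and NOTCH4, the ligands JAG1 and JAG2, and the targets HES1, HES4, HEY1 and HEYL. They were followed by poly(A) RNA-seq in IMR90, a line of human lung fibroblasts, at passage 16. Each of 4 groups was 1 library. The OIS library came from cells with a retroviral ER:RasV12 fusion, a conditional form of oncogenic H-Ras, driven into oncogene-induced senescence (OIS) by 10 nM tamoxifen over 8 days. The H3.3cs1 late and H3.3cs1 early libraries came from cells infected with a retrovirus that makes Flag-tagged H3.3, a replacement histone, in its cleaved form, taken on day 13 and day 3 after infection. The growing library came from dividing cells with the empty retroviral vector pBabe, kept for 13 days. No library with ER:RasV12 but without tamoxifen, and none with the empty vector at day 3, was analysed here, so in OIS the oncogene, the drug and culture time cannot be told apart, nor at day 3 the cleaved histone and recent infection. A library with uncleaved Flag-tagged H3.3 was not analysed here either, so in H3.3cs1 late and early the cleavage cannot be told apart from added H3.3.

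Notch receptors are cell-surface proteins that are cut when a ligand on a neighbouring cell pulls on them. The sheddases ADAM10 and ADAM17 make the first of these cuts and gamma-secretase the next, which frees the intracellular domain of the receptor. That domain enters the nucleus, joins the DNA-binding protein RBPJ and a Mastermind-like (MAML) coactivator, and switches on the HES and HEY genes, which encode transcriptional repressors of the basic helix-loop-helix class. In fibroblasts and vascular mural cells the pathway is known for its part in differentiation and in contractile gene expression, and in RAS-driven senescence NOTCH1 is known as a regulator of the secreted proteins. Activity of the pathway depends on cleaved receptor protein, which was not measured here.

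The deposited unit is FPKM, the fragments of a transcript scaled to its length and to the mapped fragments of its library, which lets levels of different genes be set side by side. Differences are of log2(FPKM + 1), the first-named group minus the second, and folds were taken from them, so that changes of low genes come out smaller than their ratio of FPKM. A gene is said to have risen or fallen where the difference was at least 2-fold. With 1 library in each group there is no replicate check, no test was made, and each difference describes these libraries. Compared were 12183 genes, those with 1 FPKM or more somewhere among the libraries. HRAS stood at 3153 FPKM in OIS and at 41.9 to 49.8 FPKM in the other libraries, which matches the label, and H3F3B, an H3.3 gene, was at 450 FPKM in H3.3cs1 late, 229 in H3.3cs1 early, 90.5 in OIS and 105 in growing. Depth relative to growing was judged from the commonest ratio of FPKM, inverted, among named, detected loci below 0.06 FPKM in both libraries. It was 85.3% in OIS, 79.6% in H3.3cs1 late and 96.6% in H3.3cs1 early, which are rough estimates. All 8 fibroblast markers were above an FPKM of 1 in every library.

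In short form, the targets HES1 and HEY1 rose in OIS and in no other group, the ligands JAG1 and JAG2 rose in H3.3cs1 late and in no other group, and NOTCH1, NOTCH2 and NOTCH3 passed 2-fold in none of the 5 comparisons made. Of the 10 genes, 9 reached an FPKM of 1 somewhere. HEYL did not, and NOTCH4 was listed only on a locus joined with its neighbour GPSM3. JAG2 and HEY1 passed that filter by the 1 library in which they were high, so counts over the genes that passed carry that choice. In OIS against growing 2 of the 9 rose, HES1 and HEY1, and 0 fell, where 9.13% of all genes compared rose and 8.17% fell, 17.3% in all. In H3.3cs1 late against growing 2 of the 9 rose, JAG1 and JAG2, and 0 fell, with 3.51% of all genes rising and 5.47% falling, 8.99% in all. At day 3, H3.3cs1 early against growing, 0 of the 9 passed in either direction, beside 1.4% of all genes that rose and 3.96% that fell, 5.37% in all. The median differences of the 9 were 0.43, 0.09 and -0.30 in these comparisons, against medians of 0.03, -0.04 and -0.02 over all genes. The comparisons share the growing library, and their values are given side by side for that reason. In bulk RNA a change in the share of cells that express a gene and a change of its RNA per cell cannot be told apart.

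**Figure D1:**
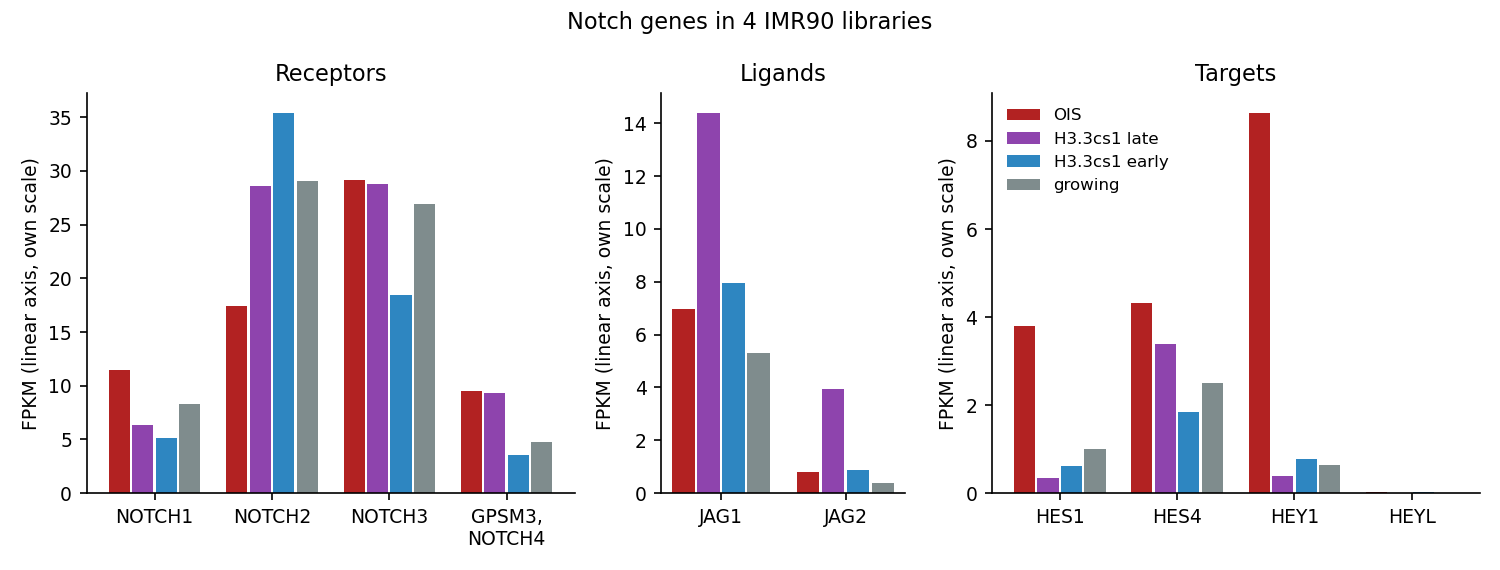
FPKM (linear axes, each panel on its own scale) of the receptors, ligands and targets, with 1 bar for each of the 4 libraries and no error bars, since each group is 1 library. JAG1 and JAG2 are highest in H3.3cs1 late, at 14.4 and 3.96 FPKM, while HES1 and HEY1 are highest in OIS, at 3.79 and 8.65 FPKM, and HEYL is at or near 0 in every library.

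NOTCH1, the receptor best known from T-cell leukaemia, was at 11.5 FPKM in OIS, 6.39 in H3.3cs1 late, 5.17 in H3.3cs1 early and 8.27 in growing. It was highest in OIS, and both H3.3cs1 libraries lay below growing, with differences of 0.43 in OIS, -0.33 in late and -0.59 in early, none of them 2-fold. NOTCH2, a widely expressed receptor of mesenchymal cells, ran the other way, with 17.5 FPKM in OIS, 28.6 in H3.3cs1 late, 35.4 in H3.3cs1 early and 29.0 in growing. OIS was the lowest library for it, at a difference of -0.70 from growing, and late differed from growing by -0.02. Some of the fragments of NOTCH2 can come from its partial copy NOTCH2NL, which is listed with NBPF10 on a joined locus at 10.4 FPKM in OIS, 4.58 in late, 7.17 in early and 5.25 in growing. How such fragments were divided is not given in the sources used here. With the whole joined locus added to it, NBPF10 included, the NOTCH2 difference in OIS against growing was -0.29. How much of that locus is NOTCH2NL cannot be told.

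NOTCH3, the receptor known for its role in vascular smooth muscle and pericytes, was at 29.1 FPKM in OIS, 28.8 in H3.3cs1 late, 18.4 in H3.3cs1 early and 26.9 in growing. OIS, late and growing lay close together, and day 3 was the low library, at a difference of -0.52 from growing. From day 3 to day 13 of H3.3cs1 the difference was 0.61, also under 2-fold. Together NOTCH1, NOTCH2 and NOTCH3 summed to 58.0 FPKM in OIS, 63.7 in late, 59.0 in early and 64.2 in growing, so the total varied little while its make-up did not stay the same. NOTCH2 made up 30.1% of that sum in OIS, 44.8% in late, 60.0% in early and 45.2% in growing. NOTCH1 made up 19.7% in OIS against 8.75% to 12.9% in the other libraries, and NOTCH3 was the leading receptor in OIS and late, NOTCH2 in early and growing. In late the lead was slight, with NOTCH3 at 45.1%, and it passes to NOTCH2 where the 4.58 FPKM of the joined NOTCH2NL locus are added to NOTCH2.

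**Figure D2:**
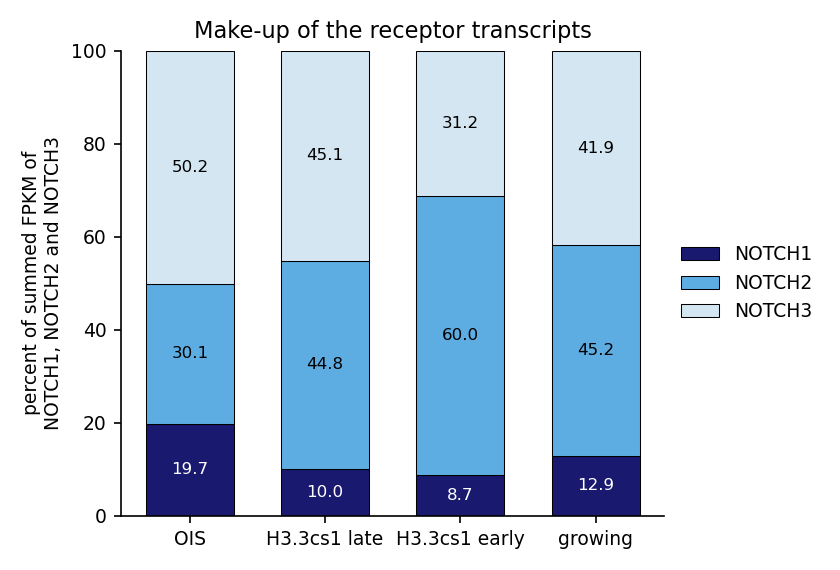
Percent of the summed FPKM of NOTCH1, NOTCH2 and NOTCH3 that each receptor held, 1 stacked bar per library. NOTCH2 holds 30.1% in OIS and 60.0% in H3.3cs1 early, and NOTCH1 holds its highest share, 19.7%, in OIS.

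NOTCH4, a receptor known mainly from endothelial cells, cannot be read on its own. The joined GPSM3,NOTCH4 name stands on 7 lines, of which 1 was above 0, and GPSM3, a regulator of G-protein signalling, shares that value. The locus was at 9.56 FPKM in OIS, 9.33 in H3.3cs1 late, 3.52 in H3.3cs1 early and 4.76 in growing. OIS and late were close to each other and above early and growing, with differences from growing of 0.87 and 0.84. Late against early, the locus rose 2.28-fold, the only receptor locus past 2-fold in the 5 comparisons made, and after rescaling the libraries to the same sum that difference was just under 2-fold (0.99).

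The ligands JAG1 and JAG2, membrane proteins that bind Notch on the neighbouring cell, rose in H3.3cs1 late. JAG1 was at 14.4 FPKM in late and 7.94 in H3.3cs1 early, with 6.96 in OIS and 5.32 in growing. Late stood apart as the high library, 2.44-fold above growing (difference 1.29), and early and OIS lay slightly above growing, with differences of 0.50 and 0.33. Late exceeded early by 0.78 on the log2 scale, short of 2-fold. JAG2, the less abundant ligand, was at 3.96 FPKM in late, 0.859 in early, 0.808 in OIS and 0.387 in growing. Its rise in late was 3.57-fold against growing and 2.67-fold against early, and as a plain ratio of FPKM the late level was 10.2 times that of growing. Levels of JAG2 below 1 FPKM in the other libraries are too low for their order to be read. The sum of JAG1 and JAG2 was 18.4 FPKM in late, 8.80 in early, 7.76 in OIS and 5.70 in growing, and JAG1 held 78.4% to 93.2% of it.

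Other ligands were scarce. DLL4, a Delta ligand best known from endothelial tip cells, fell 3.16-fold in late, to 0.364 FPKM, and 2.48-fold in early, to 0.740 FPKM, against 3.32 FPKM in growing, and was at 5.09 FPKM in OIS. In OIS it was 0.50 above growing on the log2 scale, without passing 2-fold. The Delta ligands DLL1 and DLL3 and the Notch-modulating proteins DLK1 and DLK2 did not reach an FPKM of 1 in any library, and the highest value among them was 0.961 FPKM, for DLK1 in early. In late the Jagged ligands were thus high where DLL4 was low. In OIS the summed Jagged level of 7.76 FPKM stood beside a DLL4 level of 5.09 FPKM.

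The targets moved in OIS, and there HEY1 moved furthest. HEY1, a repressor known as a direct Notch target in vascular and mesenchymal cells, was at 8.65 FPKM in OIS, 0.392 in H3.3cs1 late, 0.773 in H3.3cs1 early and 0.647 in growing. It rose 5.86-fold in OIS against growing (difference 2.55), and the plain ratio of FPKM was 13.4. The other libraries were all below 1 FPKM and are not ordered here. HES1, the best-known Notch target and a repressor of differentiation genes, was at 3.79 FPKM in OIS, 0.344 in late, 0.607 in early and 1.01 in growing. It rose 2.38-fold in OIS (difference 1.25, plain ratio 3.75), and both H3.3cs1 libraries were below growing, with differences of -0.58 in late and -0.32 in early. With a pseudocount of 0.1 in place of 1 the HES1 value in late passed 2-fold, at -1.32. Late and early were below 1 FPKM for HES1 and growing was at 1.01, so their order is not read here either. In growing, HEY1 lay above 5.21% of the genes compared and in OIS above 47.7% of them, and the same places for HES1 were 8.26% and 28.6%. HEY1 in OIS thus stood near the middle of the genes compared, and HES1 in the lower part.

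HES4, a HES family member that human cells have and mice lack, did not follow HES1. It was at 4.32 FPKM in OIS, 3.39 in late, 1.84 in early and 2.50 in growing, with differences from growing of 0.60, 0.33 and -0.30 and none past 2-fold in any comparison. OIS was again its highest library and early its lowest. HES4 was the most abundant of the measured targets in late, early and growing, with 82.2%, 57.2% and 60.1% of the summed FPKM of HES1, HES4 and HEY1, while HEY1 took that place in OIS with 51.6%. The sum was 16.8 FPKM in OIS, 4.13 in late, 3.23 in early and 4.16 in growing. HEYL, a relative of HEY1 known from mural cells with NOTCH3 activity, was at 0.0265 FPKM in OIS, 0.0102 in late and 0.0309 in early and was listed at 0 in growing. These levels are at the limit of detection and give no fold.

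**Figure D3:**
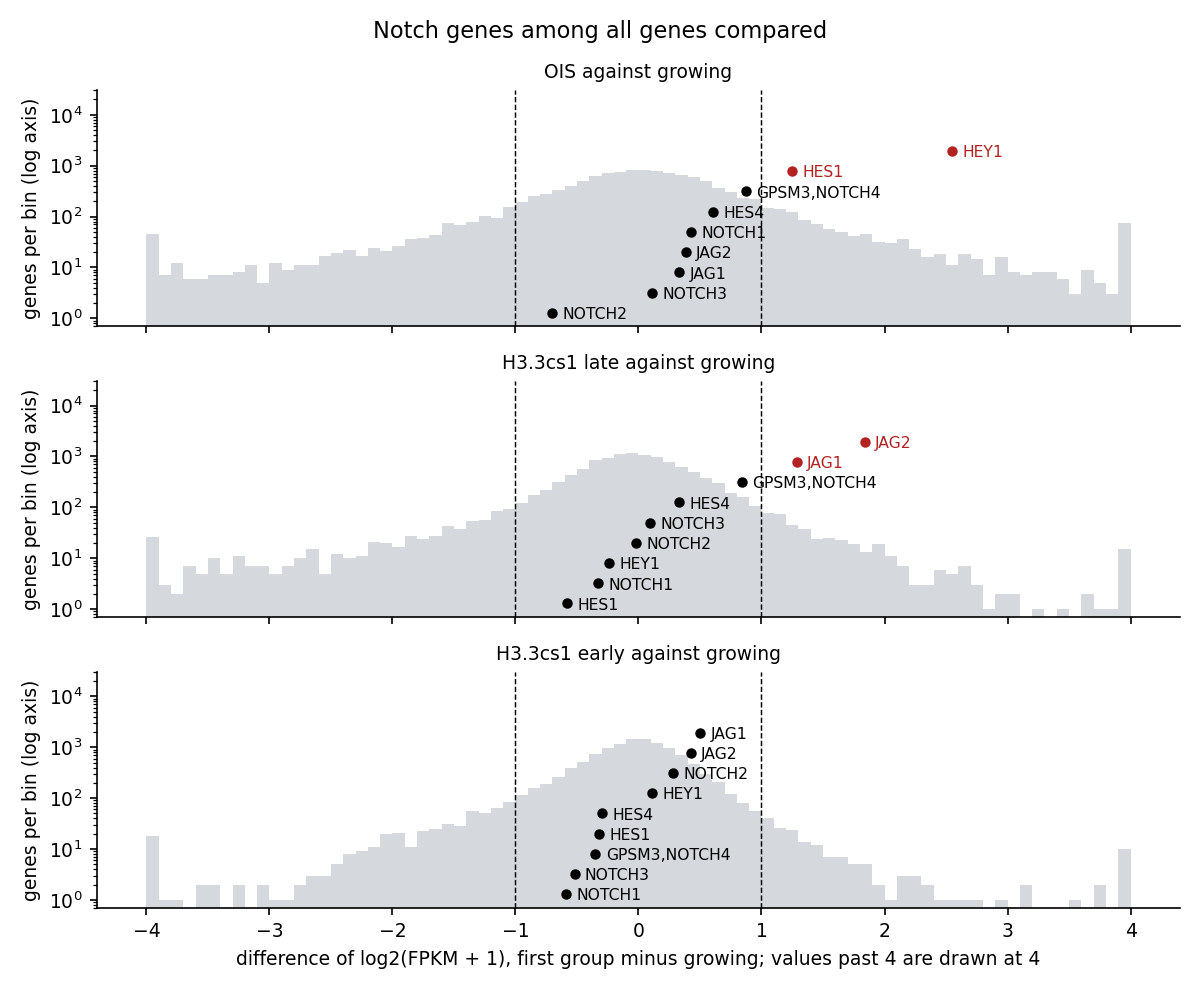
Differences of log2(FPKM + 1) against growing for OIS, H3.3cs1 late and H3.3cs1 early. Grey bars are all 12183 genes compared (bins of 0.1, log axis), dashed lines mark 2-fold, and points are the 9 Notch genes that reached an FPKM of 1, with their height chosen only to separate the names. HES1 (1.25) and HEY1 (2.55) lie past the line in OIS, JAG1 (1.29) and JAG2 (1.84) in late, and none in early.

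Because RBPJ is the DNA-binding part of the Notch complex, the start regions of the targets are shown as reference sequence. For 9 of the 10 genes a RefSeq promoter window of build GRCh38.p14 was at hand. HEY1, the target that rose furthest in OIS, had no window and was not searched. In the other genes the 250 bases before the annotated start were searched for the core letters TGGGAA on either strand. The letters were found in the windows of 3 of the 3 targets with a window and 0 of 6 receptors and ligands, and in 20.8% of the 35116 windows in the table. The HES1 window holds them in 2 places, 84 to 79 and 70 to 65 bases before the start on the strand of the gene, as 2.90% of all windows do in 2 or more places. HES4 has 1 match, 76 to 71 bases before the start, and HEYL has 2, at 99 to 94 and, on the opposite strand, at 178 to 173. The windows of the 3 targets are given 5′ to 3′ on the strand of each gene, from chr3:194135898-194136147 (plus strand) for HES1, chr1:1000098-1000347 (minus strand) for HES4 and chr1:39639644-39639893 (minus strand) for HEYL, with the matches in capitals.
HES1: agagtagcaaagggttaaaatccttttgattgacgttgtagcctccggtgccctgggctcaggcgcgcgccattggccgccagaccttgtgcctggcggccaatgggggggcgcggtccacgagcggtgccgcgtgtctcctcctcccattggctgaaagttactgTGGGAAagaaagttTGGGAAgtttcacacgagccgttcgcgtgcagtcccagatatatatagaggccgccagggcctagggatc
HES4: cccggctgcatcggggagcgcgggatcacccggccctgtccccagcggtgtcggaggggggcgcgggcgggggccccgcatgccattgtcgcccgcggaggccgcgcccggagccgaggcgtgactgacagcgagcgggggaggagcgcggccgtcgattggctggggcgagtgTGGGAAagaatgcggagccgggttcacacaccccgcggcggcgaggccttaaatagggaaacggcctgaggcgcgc
HEYL: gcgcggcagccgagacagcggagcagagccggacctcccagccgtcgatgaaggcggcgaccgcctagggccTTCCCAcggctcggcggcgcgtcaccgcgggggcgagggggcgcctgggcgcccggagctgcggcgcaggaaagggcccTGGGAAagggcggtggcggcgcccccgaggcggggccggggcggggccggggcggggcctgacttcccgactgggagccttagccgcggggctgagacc
The matches are a description of these letters and not of bound sites. The target that rose and has a window, HES1, the target that did not pass 2-fold, HES4, and the target near 0, HEYL, all hold the letters. Of the N-box letters CACNAG, which HES proteins are known to bind, HES1 has 3 matches outside the RBPJ matches, NOTCH3 and NOTCH4 have 1 each and the other 6 windows have 0, beside 32.0% of all windows with at least 1. E-box letters CANNTG occur in the JAG2 window 2 times and in that of NOTCH4 1 time, and in 61.8% of all windows, and no E-box match overlaps an RBPJ match since neither window holds one.

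The senescent OIS cells and the H3.3cs1 late cells were also set against each other. In OIS against H3.3cs1 late 2 of 9 genes rose, where 11.2% of all genes did, and 1 fell, where 8.51% did, 19.7% of all genes passing in either direction. HEY1 was 6.93-fold higher in OIS (8.65 against 0.392 FPKM) and HES1 3.56-fold higher (3.79 against 0.344 FPKM). JAG2 was 2.74-fold lower in OIS (0.808 against 3.96 FPKM). JAG1, at 6.96 FPKM in OIS and 14.4 in late, missed 2-fold with a difference of -0.95, and passed it after each of 3 rescalings of the libraries, to the same sum (-1.17), by centring (-1.05) and by quantiles (-1.05). This comparison uses no growing library. From day 3 to day 13 of H3.3cs1, late against early, 2 of 9 rose, JAG2 and the GPSM3,NOTCH4 locus, and 0 fell, beside 5.47% of all genes that rose and 3.4% that fell, 8.87% in all. Here HES1 and HEY1 were below 1 FPKM in both libraries, a range in which no 2-fold difference can arise on this scale.

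The rest of the pathway was described with 59 further genes in 7 lists by role, of which 46 reached an FPKM of 1 in a library. In OIS 9 of the 46 rose and 2 fell, which is 19.6% and 4.35% beside 9.13% and 8.17% of all genes compared. HES7, 1 of the 9, reached an FPKM of 1 in OIS alone, so it entered the count by the library in which it was high. After rescaling to the same sum, which moves the median difference of all genes in OIS from 0.03 to -0.16, 5 rose and 4 fell. In late 0 rose, where 3.51% of all genes did, and 2 fell, and in early 2 rose and 2 fell. The 4.35% that 2 of 46 make lies beside 5.47% of all genes that fell in late, and beside 1.4% that rose and 3.96% that fell in early, so the falls are near the share over all genes. The median differences over the 46 genes were 0.21 in OIS, -0.06 in late and -0.02 in early. In OIS against late 10 of the 46 rose, HES7 again among them, and 3 fell, 21.7% and 6.52% beside 11.2% and 8.51% of all genes.

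All 8 genes of the sheddases and gamma-secretase were expressed and 0 of 8 passed 2-fold in OIS, late or early against growing. Over all genes 17.3%, 8.99% and 5.37% did in these comparisons, so 0 among 8 genes is near those shares. PSEN2, a catalytic subunit of gamma-secretase, fell past 2-fold in OIS after rescaling to the same sum (-1.04). NCSTN, the substrate-binding subunit nicastrin and the gene of this list with the highest mean level, was at 67.6 FPKM in OIS, 111 in late, 51.2 in early and 72.0 in growing. It was the 1 gene of the list that rose from day 3 to day 13, by 2.14-fold (0.85 after rescaling to the same sum and 0.86 after quantile scaling, both under 2-fold). PSEN2 and APH1B, a further subunit, both picked out after their values were seen, were 2.14-fold and 2.11-fold lower in OIS than in late. Of the genes for receptor glycosylation and processing, 5 of 6 reached an FPKM of 1 and 0 passed 2-fold in any comparison. Over all genes 5.37% to 19.7% passed, depending on the comparison. FURIN, the protease that cuts the receptor precursor, stood at 63.4 FPKM in OIS, 52.7 in late, 46.4 in early and 56.4 in growing.

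Of the regulators of receptor and ligand trafficking 3 of 11 rose in OIS and 1 fell, where 9.13% of all genes rose and 8.17% fell. DTX4, a Deltex ubiquitin ligase, rose 6.93-fold, to 21.0 FPKM in OIS against 2.18 in growing, with 3.38 in late and 3.68 in early. NUMB, an endocytic adaptor known to antagonise Notch, rose 5.41-fold, to 201 FPKM in OIS against 36.3 in growing, with 38.8 in late and 33.6 in early. Both were high in OIS alone. MIB1, the ubiquitin ligase through which ligands are endocytosed, was at 14.6 FPKM in OIS, 4.52 in late, 9.15 in early and 6.40 in growing, a rise of 2.11-fold in OIS that fell under 2-fold after rescaling to the same sum (0.86). NEURL1B, another ligase of ligand endocytosis, fell in every group, to 0.308 FPKM in OIS, 0.219 in late and 1.14 in early against 3.57 in growing, although the early value missed 2-fold after rescaling to the same sum (-0.95). DTX3L, a Deltex relative known from interferon responses, rose in early alone, to 7.45 FPKM against 3.16 in growing, and was at 1.66 FPKM in OIS and 1.67 in late.

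Of the nuclear complex 2 of 7 rose in OIS, beside 9.13% of all genes, and 0 fell. RBPJ was at 66.3 FPKM in OIS, 27.6 in late, 43.6 in early and 32.3 in growing, and MAML2, a Mastermind-like coactivator, was at 8.74, 3.16, 4.47 and 3.72 FPKM in the same libraries. Both had their highest value in OIS and their lowest in late, and both were near the threshold, with differences in OIS of 1.02 and 1.05 that became 0.78 and 0.83 after rescaling to the same sum. RBPJ also missed it after centring (0.99) and quantile scaling (0.84). CREBBP, a histone acetyltransferase of the complex, was near the threshold on the lower side, at 4.18 FPKM in OIS against 8.90 in growing (-0.93). Among the corepressors, in numbers near the 9.13% and 8.17% of all genes, 1 of 10 rose in OIS, TLE3, a Groucho-type corepressor, with 11.1 FPKM in OIS against 4.44 in growing (0.93 and under 2-fold after rescaling to the same sum), and 1 fell, its relative TLE4, with 3.94 FPKM in OIS against 11.3 in growing. In late TLE3 was at 2.73 FPKM and TLE4 at 16.0, so the order of these relatives was reversed between OIS and late. None of the corepressors or nuclear genes passed 2-fold in late or early against growing, where 8.99% and 5.37% of all genes did.

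Further helix-loop-helix repressors moved with HES1 and HEY1 in OIS. HES7, known as an oscillating Notch target in the mouse embryo, was at 6.11 FPKM in OIS and at 0.374, 0.389 and 0.374 FPKM in late, early and growing, a rise of 5.18-fold. BHLHE40, a repressor that answers to hypoxia, the circadian clock and other stimuli as well, was at 38.8 FPKM in OIS, 5.61 in late, 14.2 in early and 6.47 in growing, rising 5.33-fold in OIS and 2.04-fold in early. BHLHE41, its close relative, rose 2.98-fold in OIS, to 5.08 FPKM against 1.04 in growing, with 2.03 in late and 2.51 in early. In all, 3 of the 4 genes of this list that reached an FPKM of 1 rose in OIS, where 9.13% of all genes did, but HES7 reached it in OIS alone and entered the count by that library. HES6, at 2.62 FPKM in OIS against 1.96 in growing, was not among them. The other 5 genes stayed below the filter. NRARP, a feedback inhibitor and sensitive Notch target, had 0.224 FPKM in OIS against 0.0820 in growing, HEY2 was at or near 0 throughout, and HES3 and HES5 were listed at 0 in every library.

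**Figure D4:**
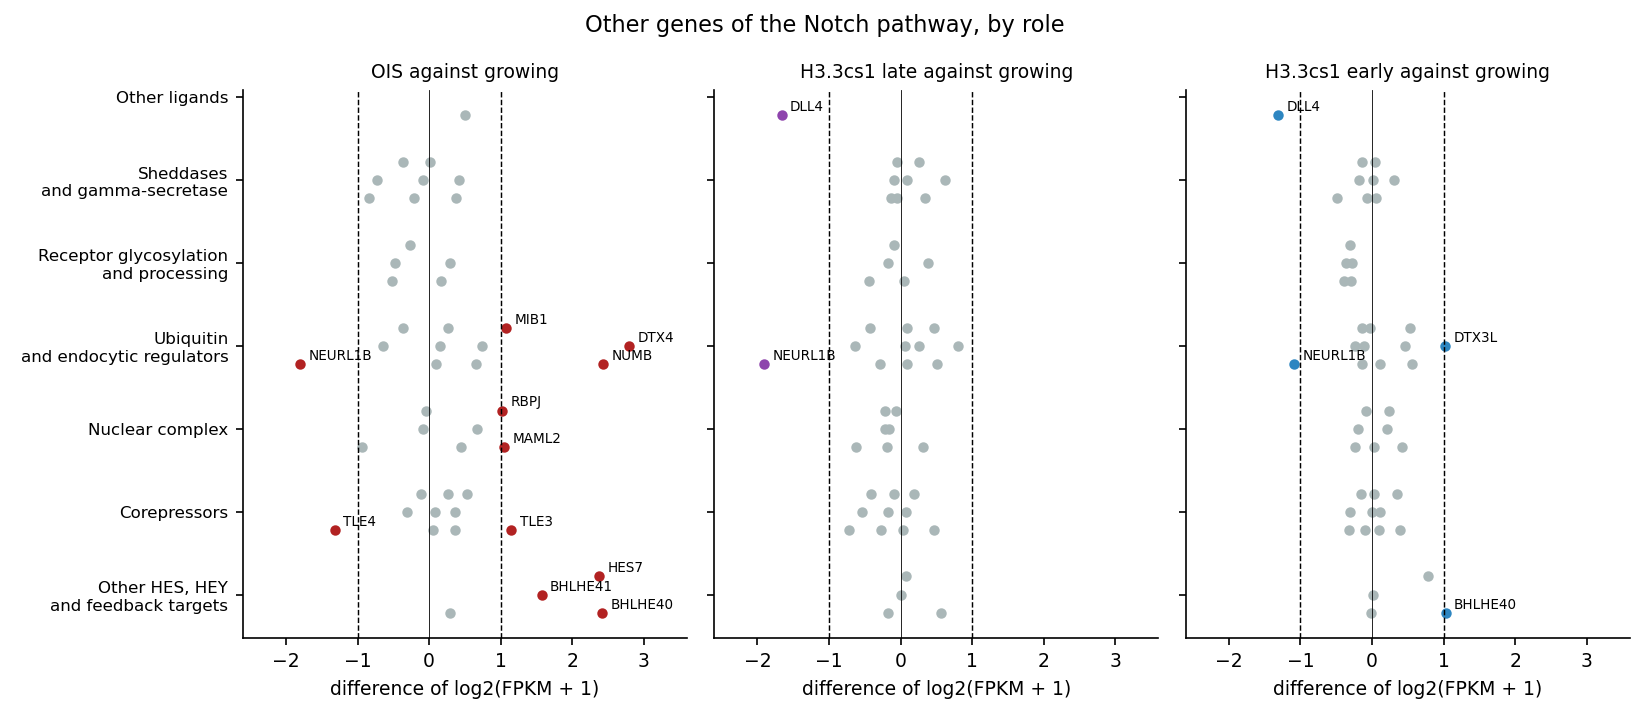
Differences of log2(FPKM + 1) against growing for the 46 further pathway genes that reached an FPKM of 1, in rows by role and a panel each for OIS, H3.3cs1 late and H3.3cs1 early. Dashed lines mark 2-fold, and coloured, named points are past it, 9 higher and 2 lower in OIS, 2 lower in late, 2 higher and 2 lower in early.

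Markers of other cell types in which Notch genes are prominent were read beside these values. In OIS 4 of the 10 endothelial markers had 1 FPKM or more, and their summed level was 22.2 FPKM in OIS, 1.33 in late, 2.41 in early and 3.11 in growing. Of the 4 markers that reached 1 FPKM, 3 rose in OIS, as HEY1 and HES1 did, where 9.13% of all genes rose. They were CLDN5 (11.6 FPKM in OIS against 0.178 in growing), TIE1 (4.05 against 0.631) and ROBO4 (4.47 against 1.19). CLDN5 and TIE1 reached 1 FPKM in OIS alone and entered the count by that library. TEK did not pass 2-fold (1.60 against 1.05). CDH5 was listed at 0 in every library, and KDR and EMCN were listed at 0 in OIS. PECAM1, ERG and VWF were at 0.115, 0.136 and 0.258 FPKM in OIS. The part of these genes in the rise of the targets was not tested. Of the 8 fibroblast markers 4 fell in OIS, where 8.17% of all genes did, among them COL1A1, a chain of collagen I, at 1012 FPKM in OIS against 4156 in growing. VIM, FAP and S100A4 were within 0.20 of growing on the log2 scale. Of 7 markers of smooth muscle and pericytes 5 reached an FPKM of 1 in each library, with sums of 140 FPKM in OIS, 871 in late, 258 in early and 568 in growing. In late, early and growing most of that sum was ACTA2, smooth muscle actin, and CNN1, calponin. ACTA2 was at 62.3 FPKM in OIS and 608 in late against 392 in growing. CNN1 was at 6.68 FPKM in OIS and 188 in late against 67.4 in growing. In OIS the markers MCAM, at 31.7 FPKM, and CSPG4, at 28.5 FPKM, were also a large part of the sum. DES was at 0.390 FPKM or less and MYH11 at 0.627 FPKM or less. Of this list CNN1 rose in late and CSPG4, a proteoglycan of pericytes, fell, to 26.1 FPKM in late against 54.2 in growing, and MCAM was at 44.6 FPKM in late against 51.0 in growing. The part of these genes in the rises of JAG1 and JAG2 was not tested. RGS5, a pericyte marker, rose in OIS, to 10.5 FPKM against 2.38 in growing. The leukocyte markers other than the joined CD68,MPDU1 locus did not reach 0.3 FPKM in any library, and of 6 epithelial markers EPCAM, CDH1 and KRT5 stayed below 0.5 FPKM, while the keratin KRT18 was at 13.1 FPKM in OIS, 170 in late and 50.9 in early against 80.0 in growing. KRT19 was at 0.160 FPKM in OIS, 3.13 in late and 10.9 in early against 2.33 in growing, and KRT8 stayed between 5.08 and 10.1 FPKM.

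The genes nearest in pattern to each Notch gene that passed 2-fold against growing were sought among 9653 loci with an FPKM of at least 1 in every library. The measure was the Euclidean distance over the 3 differences from growing, which all contain the growing value. For JAG1 they were PGAM2 (distance 0.10), MGST2 (0.16) and CNNM2 (0.19), and for JAG2 AK4 (0.23), CADM4 (0.32) and HIST1H2AC (0.34), a histone H2A gene with near-identical copies. TLE3 was the nearest to HES1 (0.11), followed by RSL24D1 (0.16) and the small nucleolar RNA host gene SNHG5 (0.17). Nearest to HEY1 were TMX4 (0.13), SOCS3 (0.16), an inhibitor of cytokine signalling, and HPCAL1 (0.18). TMX4 was at 71.8 FPKM in OIS against 10.4 in growing, SOCS3 at 70.9 against 12.4 and HPCAL1 at 140.3 against 20.3. The search itself fixes this likeness. Values below 1 FPKM are also drawn together by the pseudocount, which holds for HEY1 outside OIS, for JAG2 outside late and for HES1 in late and early.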

How the data were processed

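Poly(A) RNA libraries, prepared with the TruSeq RNA Sample Prep Kit v2 per the labels' protocols, were sequenced for 4 groups of IMR90 cells, 1 library each. The authors deposited FPKM values, 1 per locus and library. Per the submitters' processing notes, the tools were Cufflinks 2.1.1, TopHat2 2.0.3 and Bowtie2, with the build hg19. How strand and fragments with several places were handled, and whether libraries were normalized to each other, is not given in the sources used here. Without known strand, a gene and an overlapping antisense transcript cannot be told apart. The header over each file's values names another library, as a header without a name for its row column would, so samples were taken from GEO's record, with HRAS as a check. Fragment counts are not given, so no interval or floor was computed.

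Of 26468 loci, 2310 without a gene name, with 47.4% to 57.9% of the summed FPKM, were left out. Lines of a symbol were summed, and joined loci kept their joined names. Genes reaching 1 FPKM in any library were compared as log2(FPKM + 1), and a difference of 2-fold or more was called. No test was made. Genes named are the 10 Notch genes, further pathway genes past 2-fold against growing (otherwise the gene with the highest mean of its list), and the 3 nearest patterns per gene. The genes and lists were chosen with earlier results of these data known. The size rule, the pattern search and the motif search were tested on simulated data. Tools were Python 3.11.15, numpy 2.4.6, pandas 2.3.3 and matplotlib 3.10.9. Alternatives were a pseudocount of 0.1, a filter at 5 FPKM, no filter, the same sum for all libraries, centring, quantile scaling, the highest line of a symbol, joined loci left out, and genes listed at 0 left out. Adding the joined NBPF10,NOTCH2NL locus to NOTCH2 was chosen after seeing the data.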

Additional observations from a re-analysis of the deposited data

How the results depend on the processing

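The rises of HEY1 and HES1 in OIS and of JAG1 and JAG2 in H3.3cs1 late kept their direction and stayed past 2-fold under each alternative that gave a value for them. The range was 2.34 to 3.55 for HEY1, 1.07 to 1.81 for HES1, 1.29 to 1.42 for JAG1 and 1.84 to 3.06 for JAG2. HES1 and JAG2 never reached 5 FPKM, so the filter at 5 FPKM left 1 Notch gene higher in OIS, 1 higher in late against growing, 1 higher in late against early, and 1 higher and 0 lower in OIS against late. Late against early, 1 was also left after rescaling to the same sum and without joined loci. With a pseudocount of 0.1, 1 gene, HES1, was lower in late against growing, at levels near or below 1 FPKM. In OIS against late 2 were lower, JAG1 with JAG2, with that pseudocount (JAG1 at -1.04), the same sum, centring and quantile scaling. Among the further pathway genes, the same sum gave 5 higher and 4 lower in OIS and 1 lower in early. The filter at 5 FPKM gave 1 lower in OIS, 1 in late and 1 in early. Late against early, 0 were higher after the same sum or quantile scaling, 2 were with a pseudocount of 0.1, and 4 were lower with either that pseudocount or the same sum.

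Over all genes, those lower in OIS numbered 995, and 1523 with a pseudocount of 0.1. In late against growing 428 were higher, and 743 with it. In early against growing 171 were higher, 437 with it and 316 with the same sum. In late against early 414 were lower, 910 with it and 807 with the same sum. The share of changed genes that were higher went to 37.7% in OIS with the same sum against 52.8% as deposited, to 48.3% against 26.1% in early, to 36.4% against 61.7% in late against early and to 41.3% against 56.8% in OIS against late. The median difference over all genes became 0.19 in early, -0.26 in late against early and -0.11 in OIS against late with the same sum. A pseudocount of 0.1 likewise made the share in early 38.5%, and in late against early 50.6%. No value of a Notch gene that had been called reversed its direction. No paired analysis was possible because each group has 1 library. With unknown depth, levels below 1 FPKM are not ordered.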

Other observations

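Genes next to HES1, HES4, HEY1, JAG1 and JAG2 were looked up, with neighbours taken from RefSeq (GRCh38.p14). They and the genes of the next paragraph were chosen after values were seen. ISG15, the interferon-stimulated neighbour of HES4, rose in OIS and in H3.3cs1 early, to 65.6 and 63.7 FPKM against 25.9 in growing, with 37.2 in H3.3cs1 late. HES4 was at 4.32 FPKM in OIS and 1.84 in early against 2.50 in growing, so it did not rise with its neighbour at day 3. NUDT14, beside JAG2, rose in early, to 17.7 FPKM against 6.57 in growing, and was at 13.9 FPKM in late, while JAG2 itself was at 0.859 FPKM in early and 3.96 in late. BTBD3, beside JAG1, was at 11.2 FPKM in OIS, 10.5 in late, 7.56 in early and 8.45 in growing, and MRPS28, beside HEY1, at 24.7, 21.5, 19.3 and 23.0 FPKM in the same libraries, with no 2-fold difference. CPN2, beside HES1, was at 0.0364 FPKM or less. SLX4IP, beside JAG1, GPR132, beside JAG2, and STMN2, beside HEY1, also stayed below 1 FPKM in every library. PERM1, on the other side of HES4, was at 1.18 FPKM in OIS against 0.415 in growing, short of 2-fold on the scale used.

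TGF-beta ligands, which are known to raise JAG1 and HEY1 in epithelial cells, differed by form. TGFB2 was at 47.5 FPKM in late and 3.06 in early against 4.23 in growing and fell to 1.15 FPKM in OIS, and TGFB3 rose in late, to 3.35 FPKM against 0.848 in growing. TGFB1 was at 135 FPKM in OIS, 66.7 in late and 61.3 in early against 97.7 in growing. Of the 4 ID proteins, which bind helix-loop-helix factors and block their action on DNA, ID1 and ID2 fell in OIS. ID2 fell to 4.81 FPKM in OIS against 54.3 in growing, ID1 fell to 15.7 FPKM against 66.0, and ID3 was at 47.5 FPKM against 93.7, just short of 2-fold, with ID4 at 0.139 FPKM against 1.05. In early ID2 rose, to 119 FPKM, and in late ID1 fell to 26.3 FPKM and ID3 to 45.0 FPKM. CEBPB, a factor of the secretory programme that NOTCH1 activity is known to restrain, rose in OIS, to 76.1 FPKM against 14.9 in growing. NOTCH1 activity was not measured. The part of the TGF-beta ligands, the ID genes and CEBPB in the changes of the Notch genes, or of Notch in theirs, was not tested.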
